A study of Mus musculus with 12 samples.

Results

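The RasGRP proteins, the Rapgef proteins that include both Epacs, and the Rap1 GTPases were followed as transcripts in bone marrow-derived macrophages (BMDMs) given fenoterol, an agonist of the β2 adrenergic receptor (B2AR). The set holds 10 of the 53379 genes listed in the count table: *Rasgrp1* to *Rasgrp4*, *Rapgef1* to *Rapgef4*, *Rap1a* and *Rap1b*. The set was chosen by the measured counts of *Rasgrp3*, picked for its late fall, and the other 9 genes were taken by name, as the rest of the RasGRP family, the cAMP-gated Epacs with their relatives, and Rap1. The levels of *Rasgrp3* are therefore a description with no test, while the other members were tested over all genes. Of the 10 members, 8 passed the filter on low counts and were among the 12386 genes tested, and *Rasgrp1* and *Rapgef4* did not.

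BMDMs of 4 C57Bl/6J mice were compared in 3 groups of 4 libraries. Untreated BMDMs were the controls, and cells of the same mice received 1 µM fenoterol for 1 h or for 4 h. The same untreated libraries serve both comparisons, and the labels name no separate control for 4 h. Fenoterol and time in culture can therefore not be told apart. All groups were grown from marrow of the leg bones in medium conditioned by L929 cells, a fibroblast line that secretes the macrophage growth factor CSF1, and fenoterol was added without a change of medium. Each mouse gave 1 library to each group, so p-values measure the spread between 4 mice of 1 strain in culture. Total counts were 14580533 to 24153284 per library.

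RasGRP proteins are guanine nucleotide exchange factors: most of them bind diacylglycerol at membranes, and the family loads Ras, and in part Rap, with GTP. Epac1 (*Rapgef3*) and Epac2 (*Rapgef4*) bind cAMP directly and load Rap1, which makes them a branch of cAMP signaling that runs beside protein kinase A downstream of Gs-coupled receptors such as B2AR. Rap1 in its GTP form activates integrins through RIAM and talin and takes part in macrophage adhesion and phagocytosis. GTPase-activating proteins end the signal of Ras and Rap, and diacylglycerol kinases remove the lipid that recruits most RasGRPs.

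The promoters of *Rasgrp3*, *Rapgef3* and *Rap1b* are shown because these are the members with the largest fall, the cAMP-gated member with the largest response between time points, and the most abundant member. Each is the 250 bases upstream of an annotated start, 5′ to 3′ on the strand of the gene, from RefSeq on GRCm38.p6. Capitals mark a cAMP response element (CRE), the element bound by CREB: TGACGTCA, which reads the same on both strands, or its short form TGACG, searched on both strands and contained in the full element. *Rasgrp3* has 2 such promoters on the plus strand, at chr17:75435655-75435904 and chr17:75465288-75465537. *Rapgef3* has 1 on the minus strand at chr15:97767667-97767916, and *Rap1b* has 1 on the minus strand at chr10:117845975-117846224.
Rasgrp3, first promoter: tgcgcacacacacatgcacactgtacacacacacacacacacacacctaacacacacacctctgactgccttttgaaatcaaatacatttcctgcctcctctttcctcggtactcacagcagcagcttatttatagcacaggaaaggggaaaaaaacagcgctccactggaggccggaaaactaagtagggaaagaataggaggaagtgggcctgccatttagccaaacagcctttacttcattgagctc
Rasgrp3, second promoter: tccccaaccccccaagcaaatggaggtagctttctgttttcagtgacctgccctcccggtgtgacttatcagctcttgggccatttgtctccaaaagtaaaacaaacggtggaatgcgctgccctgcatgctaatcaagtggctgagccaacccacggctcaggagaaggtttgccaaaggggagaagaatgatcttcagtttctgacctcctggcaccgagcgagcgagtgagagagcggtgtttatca
Rapgef3: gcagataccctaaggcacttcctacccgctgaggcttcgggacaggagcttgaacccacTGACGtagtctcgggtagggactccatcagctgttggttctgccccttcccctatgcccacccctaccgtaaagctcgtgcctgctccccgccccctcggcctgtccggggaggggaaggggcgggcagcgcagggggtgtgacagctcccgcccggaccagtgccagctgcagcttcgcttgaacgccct
Rap1b: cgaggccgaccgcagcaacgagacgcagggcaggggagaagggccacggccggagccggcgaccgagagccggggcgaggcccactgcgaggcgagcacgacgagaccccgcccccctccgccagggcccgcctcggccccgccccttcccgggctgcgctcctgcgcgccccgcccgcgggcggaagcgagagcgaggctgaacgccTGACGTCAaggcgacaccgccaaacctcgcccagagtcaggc

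The *Rap1b* promoter holds a full element that starts 42 bases upstream of the annotated start, and the *Rapgef3* promoter holds the short form, which starts 191 bases upstream. Neither *Rasgrp3* promoter holds either motif. Promoters were found for 8 of the 10 members, 11 in all, and the full element occurred in 1 of these 11 and either motif in 2. Over all 32851 promoters in the table, in windows of 300 bases that include 50 bases after the start, the full element occurred in 1.79% and the short form in 20.8%. These matches describe the letters in the window and were not tested for binding. *Rasgrp4* and *Rap1a* had no entry.

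The members differed widely in level in untreated BMDMs, measured as RPKM, the count per kilobase of merged exons scaled to library size, on which genes are compared here. *Rap1b* was by far the most abundant, at 130.0 ± 6.86 (SD, n = 4), and *Rap1a* followed at 17.2 ± 1.17. *Rapgef1*, an exchange factor for Rap1, was at 15.4 ± 0.533 and overlapped with *Rap1a*. *Rasgrp4* was the most abundant RasGRP at 10.1 ± 1.28, and *Rasgrp3* followed at 5.27 ± 2.39 on the same scale. Because of its spread *Rasgrp3* overlapped with *Rapgef2*, which encodes the exchange factor PDZ-GEF1, at 3.05 ± 0.158. *Rapgef3* stood at 1.05 ± 0.0737 and *Rasgrp2* at 0.215 ± 0.0414. *Rasgrp1*, known best from T cell signaling, was at 0.0255 ± 0.00493, with at most 7 counts in any of the 12 libraries. *Rapgef4* had 3 counts in all 12 libraries together and none in the 4 libraries at 4 h, where a count of 0 allows up to 3 counts per library, so no fold change is given for it. All neighbours in this order other than the pairs named did not overlap. Lengths matter most for *Rapgef2*, whose level is 6.15 with the length of its longest transcript in place of its merged exons, beside 6.52 for *Rasgrp3* on that scale.

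*Rasgrp3* (ENSMUSG00000071042, plus strand of chromosome 17, 75435896 to 75529054 in GRCm38) lost most of its transcript between 1 h and 4 h. The normalized count, scaled to the mean library size, was 860, 710, 626 and 220 in untreated BMDMs of mice 1 to 4. After 1 h of fenoterol it was 611, 472, 505 and 155, and after 4 h it was 49.0, 57.4, 54.6 and 26.5. Every mouse was lower at 1 h than untreated and lower again at 4 h, and the groups overlapped at 1 h while all 4 libraries at 4 h lay below every untreated library. The means were 604 ± 274 untreated, 436 ± 196 at 1 h and 46.9 ± 14.0 at 4 h (SD, n = 4). Within each mouse, 71.0%, 66.4%, 80.7% and 70.5% of the untreated level was left at 1 h. At 4 h, 5.70%, 8.08%, 8.72% and 12.1% was left, so the steep part of the fall was shared by all 4 mice. The fitted log2 fold change was -0.47 (SE 0.39) at 1 h and -3.71 (SE 0.47) at 4 h, and -3.23 (SE 0.47) between 1 h and 4 h. In bulk RNA a loss of cells that carry the transcript and a loss of transcript per cell cannot be told apart.

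**Figure D1:**
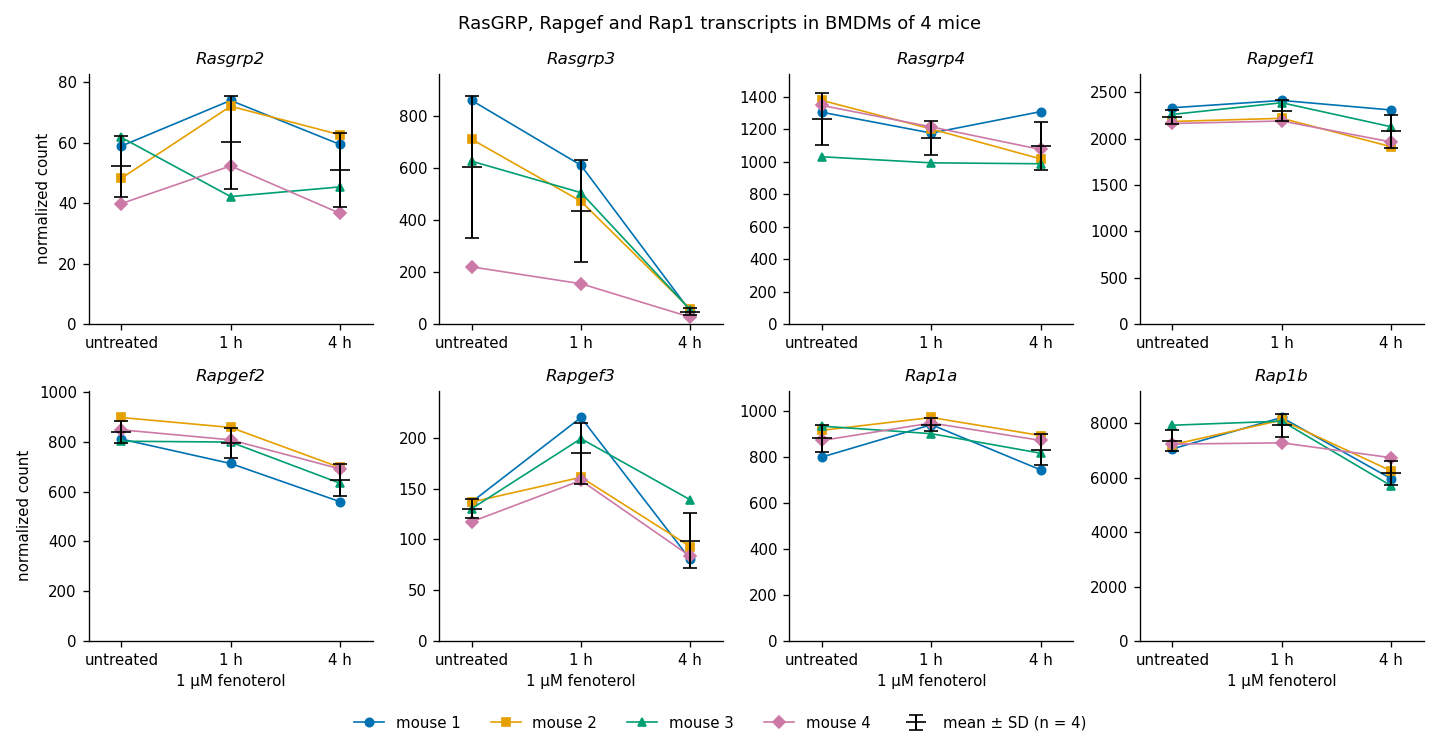
Normalized counts (vertical axis, linear from 0, each panel with its own range) of the 8 tested members in untreated BMDMs and after 1 h and 4 h of 1 µM fenoterol. Coloured points and lines are the 4 mice and black bars are the mean ± SD; Rasgrp3 drops from a mean of 604 to 46.9 and Rapgef3 peaks at 1 h with a mean of 184.5.

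Mouse 4 had the lowest *Rasgrp3* count in every group, and the gene varied between mice more than most. Its untreated libraries spanned 3.91-fold, and the SD of its log2 normalized count was 0.88, against a median of 0.111 over the 10290 genes tested whose mean was 50 or more. That put *Rasgrp3* at rank 55 of these genes by spread when untreated, at rank 46 after 1 h and at rank 230 after 4 h. Among markers of other cell types, the sum of the neutrophil list had the same order of mice as *Rasgrp3* in untreated BMDMs, though not at 4 h. The summed normalized count of the 5 neutrophil markers, most of it from *Ngp*, was 404, 307, 274 and 178 in untreated BMDMs of mice 1 to 4 and 335, 262, 323 and 191 at 4 h, so mouse 4 was lowest there too. Of the 5, *Elane*, *Mpo*, *Ngp* and *Camp* had counts and *Ly6g* had at most 1 count in a library, and the summed level at 4 h overlapped with that in untreated cells. *Ngp* and *Camp* were lowest in mouse 4 in every group. At 4 h the low *Elane* was highest in mouse 4, at 4.68, and *Mpo* was lowest in mouse 2, at 9.4 against 15.6 in mouse 4. The part of these cells in the spread of *Rasgrp3* was not tested. Without mouse 4, an alternative chosen after seeing the data, the log2 fold change of *Rasgrp3* was -0.47 at 1 h and -3.77 at 4 h. The value at 1 h was -0.745 without the untreated library of mouse 4 alone and -0.191 without its library at 1 h alone, and -0.249 and -0.68 without the respective libraries of mouse 1. Each of these omissions leaves a mouse in only 1 of the groups compared, so the value takes in differences in level between mice. Within mice 1 to 4 the log2 difference at 1 h was -0.494, -0.589, -0.309 and -0.502 (SD 0.118).

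*Rasgrp4*, known from mast cells and other myeloid cells, was not called at either time in the fit without a block. Its normalized count was 1304, 1377, 1030 and 1346 untreated, 1176, 1201, 993 and 1214 at 1 h, and 1308, 1017, 987 and 1075 at 4 h. The groups overlapped, with mouse 3 lowest in each of them. By edgeR's quasi-likelihood test the log2 fold change was -0.14 (SE 0.10, adjusted p = 0.414) at 1 h and -0.20 (SE 0.10, adjusted p = 0.142) at 4 h, with a 95% interval at 4 h from -0.44 to 0.03. With the mouse as a block, the value at 4 h was -0.20 with an adjusted p of 0.0218. Without a block it was also called when the untreated library of mouse 3 was left out (-0.30, adjusted p = 0.025) or that of mouse 1 at 4 h (-0.30, adjusted p = 0.0295). All 5 mast cell and basophil markers had at most 3 counts in every library, and *Tpsb2* had none. Exons on the opposite strand, most of them of *Fam98c*, cover 18.2% of the exonic length of *Rasgrp4*, and since the strand setting of the counting is not given, reads of the pair cannot be told apart with certainty. *Fam98c* itself was given 5965 counts in the 12 libraries against 13928 for *Rasgrp4*.

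The share of *Rasgrp3* among the RasGRP transcripts was much lower at 4 h. Per length, *Rasgrp3* made up 33.2% ± 12.3 of the sum of *Rasgrp3* and *Rasgrp4* without treatment, 28.5% ± 11.2 after 1 h and 4.51% ± 1.52 after 4 h (SD, n = 4). In the order of levels per length, *Rasgrp3* moved from rank 5 to rank 7, below *Rapgef2* and *Rapgef3*, and at 0.409 ± 0.122 it overlapped with *Rasgrp2* at 0.21 ± 0.0501.

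*Rasgrp2*, a calcium-responsive exchange factor for Rap1 that is prominent in platelets, was low. Its normalized count was 58.9, 48.3, 61.8 and 39.9 untreated, 74.0, 72.1, 42.2 and 52.3 at 1 h, and 59.5, 62.6, 45.4 and 36.7 at 4 h. The 3 groups overlapped, and mouse 3 went down at 1 h while the other mice went up. The log2 fold change was 0.19 (SE 0.23, adjusted p = 0.648, edgeR) at 1 h and -0.05 (SE 0.23, adjusted p = 0.894) at 4 h, with a 95% interval at 4 h from -0.58 to 0.48. Of 4 platelet and megakaryocyte markers, *Gp9* and *Gp1bb* had at most 1 count in a library, and the summed level of the list was 37.2 to 72.2 untreated and 90.7 to 111.0 at 4 h. Most of that sum was *Ppbp*, with normalized counts of 32.0 to 64.6 untreated and 75.9 to 98.3 at 4 h, which rose by 0.90 on the log2 scale (adjusted p = 0.00298, edgeR). *Rasgrp1* had normalized counts of 2.15 to 3.46 untreated, 0 to 4.11 at 1 h and 0.926 to 5.46 at 4 h. None of 6 T cell markers passed the filter, and *Cd8a* had no count.

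*Rapgef3*, encoding Epac1, fell from 1 h to 4 h, with untreated cells in between. Its normalized count was 137, 137, 130 and 117 in untreated BMDMs, 220, 161, 199 and 158 after 1 h and 80.3, 92.9, 139 and 83.4 after 4 h. All 4 libraries at 1 h were above every untreated library, and at 4 h mice 1, 2 and 4 were below every untreated library while mouse 3 was not. At 1 h the log2 fold change was 0.50 (SE 0.17), which just missed the threshold (adjusted p = 0.0506, edgeR), and the adjusted p was 0.0123 with the mouse as a block. At 4 h it was -0.40 (SE 0.17, adjusted p = 0.0864), with an adjusted p of 0.0341 under the block and of 0.00493, at a log2 fold change of -0.61, without the library of mouse 3 at 4 h. Between 1 h and 4 h *Rapgef3* fell by 0.90 on the log2 scale (SE 0.17, adjusted p = 0.000806), in 4 of 4 mice and with no overlap. The call at 1 h was made under 9 of 20 alternatives, with adjusted p from 0.0123 to 0.154, among them DESeq2 (0.0252) and limma-voom (0.0402). The antisense genes *Rapgef3os1* and *Rapgef3os2* had 2 and 24 counts in all 12 libraries, against 1641 for *Rapgef3*, and opposite-strand exons cover 6.11% of its exonic length. Nearly all Epac transcript was Epac1: per length *Rapgef3* made up 99.7% ± 0.376 of the sum with *Rapgef4* in untreated cells.

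*Rapgef2* fell late. Its normalized count was 811, 898, 803 and 849 untreated, 713, 858, 799 and 808 at 1 h, and 560, 697, 634 and 692 at 4 h. The libraries at 4 h were all below both other groups, and each mouse was lower at 4 h than untreated. The log2 fold change was -0.08 (SE 0.08, adjusted p = 0.547) at 1 h and -0.38 (SE 0.08, adjusted p = 0.00113, edgeR) at 4 h, and the fall between 1 h and 4 h was also called (-0.30, SE 0.08, adjusted p = 0.0067).

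*Rapgef1* did not pass the threshold at either time in the fit of all libraries. The normalized count of this gene, whose product is recruited by Crk adaptors, was 2334, 2186, 2262 and 2164 untreated, 2413, 2220, 2388 and 2191 at 1 h, and 2310, 1914, 2129 and 1965 at 4 h. The groups overlapped, though each mouse was lower at 4 h than untreated. The log2 fold change at 4 h was -0.11 (SE 0.06, adjusted p = 0.204, edgeR), or -0.16 (adjusted p = 0.0491) without the library of mouse 1 at 4 h, and between 1 h and 4 h it was -0.15 (SE 0.06, adjusted p = 0.0769), or -0.15 with an adjusted p of 0.0139 under the block.

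*Rap1b*, the main Rap1 transcript, was the most abundant member to fall at 4 h. Its normalized count was 7066, 7218, 7936 and 7242 untreated, 8220, 8125, 8086 and 7288 at 1 h, and 5972, 6259, 5713 and 6743 at 4 h. The libraries at 4 h lay below all others. Untreated and 1 h overlapped, with mouse 4 at 1 h (7288) below mouse 3 untreated (7936). The log2 fold change was 0.11 (SE 0.06, adjusted p = 0.276) at 1 h and -0.25 (SE 0.06, adjusted p = 0.00422, edgeR) at 4 h, and *Rap1b* fell by 0.36 between 1 h and 4 h (SE 0.06, adjusted p = 0.000348), lower in 4 of 4 mice.

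*Rap1a*, the less abundant Rap1 transcript, was not called against untreated cells. Its normalized count was 798, 914, 932 and 870 untreated, 938, 970, 899 and 946 at 1 h, and 743, 892, 815 and 870 at 4 h. Untreated cells overlapped with both treated groups, whereas the libraries at 1 h were all above those at 4 h. The log2 fold change was 0.10 (SE 0.07, adjusted p = 0.371) at 1 h and -0.08 (SE 0.07, adjusted p = 0.361) at 4 h. The difference of -0.18 between 1 h and 4 h (SE 0.07, adjusted p = 0.0469, edgeR) lost its call under 10 of 20 alternatives and was -0.08 (adjusted p = 0.346) when libraries were scaled by their size only. A copy named *Gm9392*, which shares stretches of 50 bases with *Rap1a*, had 69 counts in all libraries against 10553. *Rap1b* made up 88.3% ± 0.492 of Rap1 transcript per length without treatment, 88.4% ± 0.702 after 1 h and 87.0% ± 0.783 after 4 h.

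**Figure D2:**
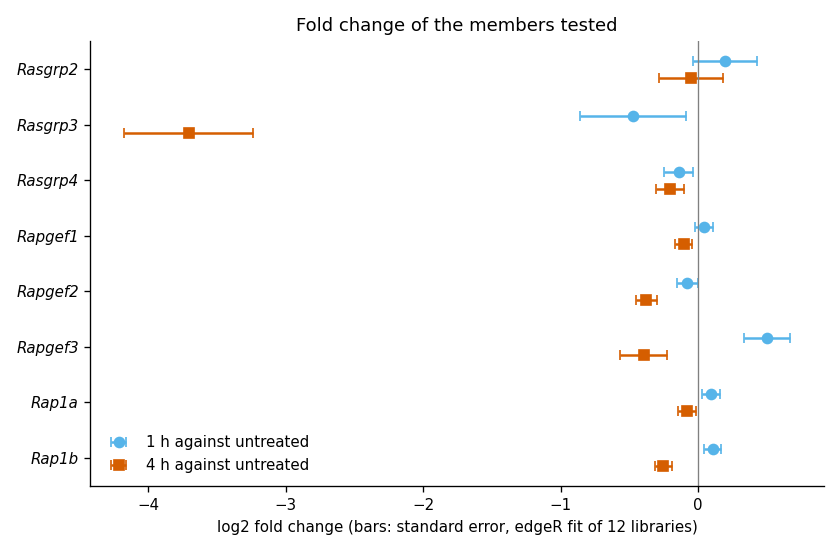
Log2 fold change against untreated BMDMs (horizontal axis) of the 8 tested members at 1 h (circles) and 4 h (squares), with standard errors from the edgeR fit of 12 libraries. Rasgrp3 at 4 h stands at -3.71, while the other members lie between -0.40 and 0.50; Rasgrp3 was chosen for its fall and is shown as a description.

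Leaving out *Rasgrp3*, 0 of the 7 members tested were called at 1 h with edgeR, where 1 had an unadjusted p under 0.05 and DESeq2 and limma-voom called 1 each. Of all 12386 genes, 20.1% were called at 1 h, 10.0% higher and 10.1% lower. The balance of directions at 1 h depended on the scaling: by library size only, 23.6% were called, 7.66% higher and 15.9% lower, and 0 of the 7 members. At 4 h, 2 of the 7 were called, *Rapgef2* and *Rap1b*, both lower, which is 28.6% beside 40.0% of all genes, 19.7% higher and 20.4% lower. With the mouse as a block 4 of the 7 were called at 4 h, with *Rasgrp4* and *Rapgef3* added and all lower, beside 47.4% of all genes, 23.6% higher and 23.8% lower, in that fit. Between 1 h and 4 h, 4 of the 7 were called and all were lower at 4 h: *Rapgef2*, *Rapgef3*, *Rap1a* and *Rap1b*. This is 57.1%, beside 38.5% of all genes, 18.7% higher and 19.8% lower. The call of *Rap1a* was lost under 10 of 20 alternatives. By library size only it was not called (adjusted p = 0.346, edgeR), while *Rapgef2*, *Rapgef3* and *Rap1b* were, beside 5333 of all genes. Of these genes 3503 were higher and 1830 lower at 4 h than at 1 h, against 2320 and 2453 in the TMM fit. The median log2 fold change of the 7 was 0.10 at 1 h, -0.20 at 4 h and -0.24 between the time points, beside -0.00486, 0.0042 and 0.00745 over all genes. The 3 contrasts share libraries and are not independent of each other.

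By Pearson's r of log2 normalized counts over the 12 libraries, the genes most like *Rasgrp3* among 10289 were *Tfrc* (0.981), *Fgd6* (0.978), *Gm13710* (0.968), *Acbd5* (0.967) and *Adcy3* (0.966). *Tfrc* encodes the transferrin receptor and *Adcy3* an adenylyl cyclase, the enzyme class that makes cAMP. The points share the 3 groups and the 4 mice. The choice by likeness selects genes that are lower at 4 h and in mouse 4, so their pattern is a description only. Their log2 fold changes at 4 h were -1.28, -0.86, -1.60, -0.49 and -0.96 in the order named, beside -3.71 for *Rasgrp3*. Among the members, *Rap1b* was the most like *Rasgrp3* (r = 0.782), followed by *Rapgef2* (0.735), *Rapgef3* (0.721) and *Rapgef1* (0.686), and *Rasgrp4* the least (0.299).

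Around the members, 68 other genes of Ras, Rap and diacylglycerol signaling in 8 lists were examined, of which 62 were tested. At 1 h, 8 rose and 8 fell (25.8% called, beside 20.1% of all genes), whereas 4 were called higher and 10 lower with scaling by library size only. At 4 h, 12 rose and 18 fell (48.4%, beside 40.0%), and between 1 h and 4 h 12 were higher and 18 lower (48.4%, beside 38.5%). The lists moved in both directions, and the 15 genes named here were called and changed by at least 1.5-fold at 1 h or 4 h.

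Of 7 other exchange factors tested, 0 rose and 1 fell at 1 h (14.3% called, beside 20.1% of all genes). At 4 h 1 rose and 2 fell (42.9%, beside 40.0%), with a median log2 fold change of -0.06. *Rapgef5*, an exchange factor for Rap also called MR-GEF, had a normalized count of 2246, 1654, 2392 and 1858 untreated, 2593, 2130, 2844 and 2225 at 1 h, and 442, 426, 546 and 739 at 4 h. Every mouse was slightly higher at 1 h and well below at 4 h, without overlap at 4 h. *Rapgef5* fell at 4 h by 1.92 on the log2 scale (SE 0.17, adjusted p = 3.87e-07, edgeR), and its value of 0.26 at 1 h was not called (SE 0.16, adjusted p = 0.292). *Rapgef6*, which encodes PDZ-GEF2, the relative of the *Rapgef2* product, had 1629, 1500, 1499 and 1358 normalized counts untreated, 1198, 1229, 1247 and 1109 at 1 h, and 551, 588, 546 and 582 at 4 h. The 3 groups of *Rapgef6* did not overlap: it fell by 0.32 at 1 h (SE 0.06, adjusted p = 0.00123, edgeR) and fell by 1.40 at 4 h (SE 0.06, adjusted p = 3.58e-10). The fall of *Rapgef6* was thus larger than that of *Rapgef2* in all 4 mice, at 37.9% of the untreated level against 77.0% in the fit, though the difference between these genes was not tested.

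**Figure D3:**
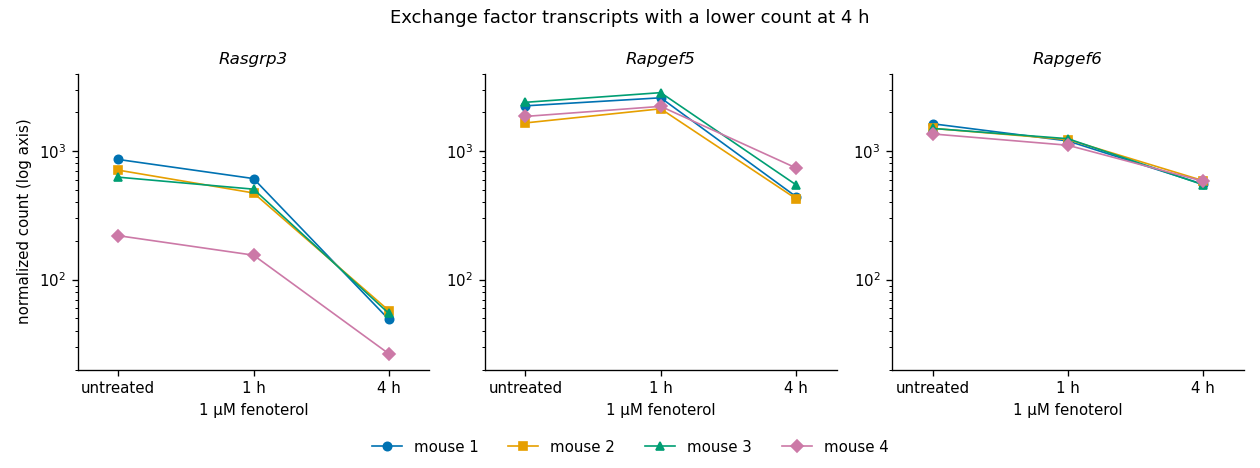
Normalized counts on a log axis of Rasgrp3, Rapgef5 and Rapgef6 in BMDMs of 4 mice (points and lines), untreated and after 1 h and 4 h of 1 µM fenoterol. Rasgrp3 ends at 26.5 to 57.4, Rapgef5 at 426 to 739 and Rapgef6 at 546 to 588, and the line of mouse 4 lies apart for Rasgrp3.

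Of the 9 other Ras and Rap GTPases, 3 rose and 2 fell at 1 h (55.6% called, beside 20.1% of all genes). At 4 h 2 rose and 3 fell (55.6%, beside 40.0%). *Rap2b*, a GTPase related to Rap1, had 2576, 2457, 2877 and 2557 normalized counts untreated, 1105, 1018, 1261 and 1201 at 1 h, and 1483, 1135, 1469 and 1510 at 4 h. It fell by 1.19 at 1 h (SE 0.09, adjusted p = 2.09e-07, edgeR) and by 0.90 at 4 h (SE 0.09, adjusted p = 1.8e-06), with every treated library below the untreated ones.

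Of 7 Rap GTPase-activating proteins, 1 rose and 1 fell at 1 h (28.6% called, beside 20.1% of all genes). At 4 h 2 rose and 1 fell (42.9%, beside 40.0%), with a median of -0.02. These proteins switch Rap off. *Sipa1l1*, whose protein is also found at synapses, had 1004, 1212, 1073 and 1033 normalized counts untreated, 919, 1248, 1104 and 996 at 1 h, and 6061, 6504, 5641 and 5866 at 4 h. It was not called at 1 h (-0.02, SE 0.09, adjusted p = 0.933), with 2 mice higher and 2 lower, and rose at 4 h by 2.48 on the log2 scale (SE 0.09, adjusted p = 6.89e-11, edgeR). *Sipa1l2*, of the same family, went from 699 to 785 normalized counts untreated to 2442 to 2638 at 4 h, a rise of 1.80 (SE 0.06, adjusted p = 2.81e-11, edgeR), after a rise of 0.33 at 1 h (SE 0.06, adjusted p = 0.00101).

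Of the 10 Ras GTPase-activating proteins, 0 were called at 1 h with edgeR, beside 20.1% of all genes. There 4 had an unadjusted p under 0.05, and DESeq2 and limma-voom called 0 each. At 4 h 3 rose and 4 fell (70.0% called, beside 40.0% of all genes). With the mouse as a block 4 of the 10 were called at 1 h, beside 27.0% of all genes in that fit, among them *Rasa2* (0.26, adjusted p = 0.0299) and *Rasa4* (-0.22, adjusted p = 0.0364). *Rasa4*, a calcium-responsive member, fell from 5590 to 6206 normalized counts untreated to 1363 to 1857 at 4 h (log2 fold change -1.80, SE 0.09, adjusted p = 8.28e-10, edgeR). *Rasa2* rose by 0.64 (SE 0.09, adjusted p = 3.95e-05, edgeR) and *Rasal2* by 0.71 (SE 0.14, adjusted p = 0.00114) at 4 h, the latter from 46.8 to 63.0 normalized counts untreated to 84.3 to 102 at 4 h. *Rasal1* was low, at 19.4 to 26.8 normalized counts untreated and 5.21 to 16.4 at 4 h, and its fall of 0.98 (SE 0.35, adjusted p = 0.0358, edgeR) lost its call under 6 of 20 alternatives.

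Downstream of Rap1, 1 of 7 effectors and adaptors rose and 1 fell at 1 h (28.6% called, beside 20.1% of all genes). At 4 h 1 rose and 2 fell (42.9%, beside 40.0%). *Apbb1ip*, which encodes RIAM, the adaptor that links Rap1 to talin, had 4223, 4001, 4259 and 3717 normalized counts untreated and 2114, 2030, 2018 and 2176 at 4 h. Its level at 4 h was 51.5% of the untreated level in the fit, with no overlap (log2 fold change -0.96, SE 0.06, adjusted p = 2.35e-08, edgeR), after -0.11 at 1 h (SE 0.06, adjusted p = 0.285). Of 7 Ras effector kinases, 0 rose and 1 fell at 1 h, and 2 rose and 0 fell at 4 h, each by less than 1.5-fold. These are 14.3% and 28.6% called, beside 20.1% and 40.0% of all genes.

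Among phospholipase C genes, whose products with lipase activity make diacylglycerol, 0 of 8 tested rose and 2 fell at 1 h, and 0 rose and 4 fell at 4 h, with a median of -0.21 at 4 h. *Plcl2*, a relative that lacks lipase activity, fell from 1547 to 1809 normalized counts untreated to 888 to 955 at 4 h (log2 fold change -0.83, SE 0.06, adjusted p = 5.88e-08, edgeR). *Plcb4* was low, at 22.8 to 51.7 normalized counts untreated and 7.31 to 19.5 at 4 h, and fell by 1.48 (SE 0.33, adjusted p = 0.00215, edgeR). *Plcd3* had 17.4 to 23.7 normalized counts untreated, 6.76 to 13.4 at 1 h and 26.1 to 35.5 at 4 h. It fell by 0.91 at 1 h (SE 0.26, adjusted p = 0.0218, edgeR), a call lost under 6 of 20 alternatives, and was not called at 4 h (0.56, SE 0.23, adjusted p = 0.0655).

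Of 7 diacylglycerol kinases tested, 3 rose and 0 fell at 1 h (1 called with scaling by library size only), and 1 rose and 2 fell at 4 h. That is 42.9% called at each time, beside 20.1% of all genes at 1 h and 40.0% at 4 h. *Dgkd* had 6091 to 6406 normalized counts untreated, 6684 to 7312 at 1 h and 3302 to 3677 at 4 h, without overlap. It rose by 0.17 at 1 h (SE 0.05, adjusted p = 0.0239, edgeR), a call lost under 7 of 20 alternatives, and fell by 0.86 at 4 h (SE 0.05, adjusted p = 6.01e-09). *Dgke* was higher at both times, at 184 to 232 normalized counts untreated, 405 to 475 at 1 h and 325 to 377 at 4 h. Its log2 fold change was 1.07 (SE 0.09, adjusted p = 3.84e-07, edgeR) at 1 h and 0.75 (SE 0.09, adjusted p = 7.84e-06) at 4 h.

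**Figure D4:**
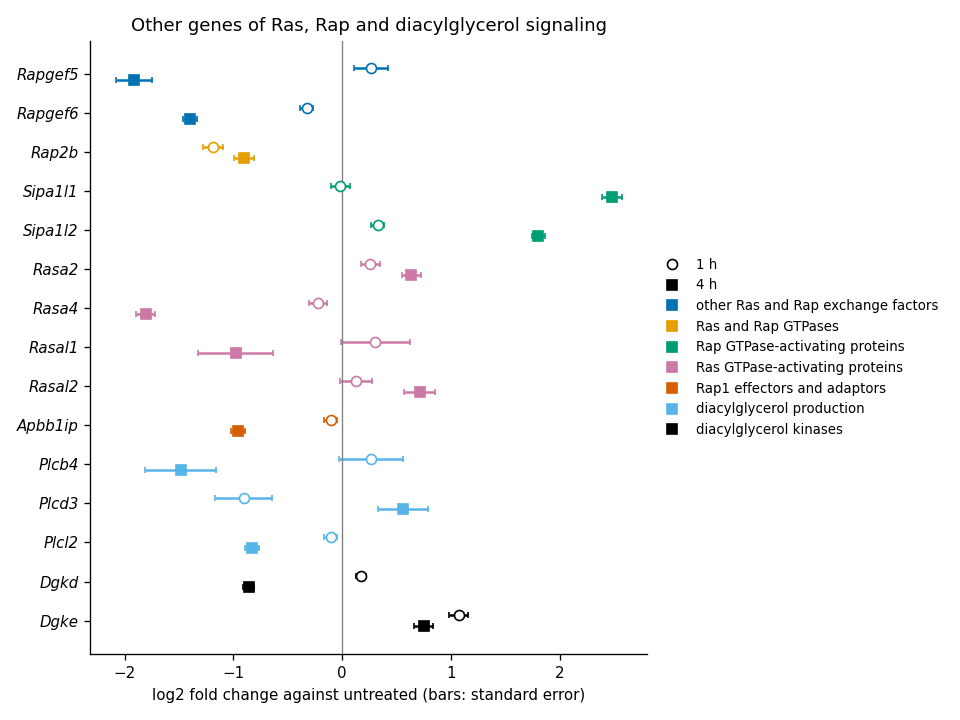
Log2 fold change against untreated BMDMs (horizontal axis, bars are standard errors) at 1 h (open circles) and 4 h (filled squares) of 15 named genes of Ras, Rap and diacylglycerol signaling, coloured by list. Sipa1l1 reaches 2.48 at 4 h from -0.02 at 1 h, Dgke is at 1.07 at 1 h, and Rapgef5 at -1.92 and Rasa4 at -1.80 are the lowest at 4 h.

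The cell type was checked against markers. All 7 macrophage markers passed the filter, with summed normalized counts of 735000 to 774000 untreated, 661000 to 782000 at 1 h and 626000 to 717000 at 4 h. These sums are mostly *Lyz2*. Single markers moved in both directions at 4 h with edgeR: *Mertk*, a receptor for the uptake of dying cells, fell by 1.51 on the log2 scale (adjusted p = 5.13e-11), *Adgre1*, *Csf1r* and *Cd68* had log2 fold changes of -0.21, -0.26 and -0.22 (adjusted p = 0.0183, 0.0394 and 0.0296), and *Itgam* rose by 0.42 (adjusted p = 7.58e-06) and *Fcgr1* by 0.72 (adjusted p = 0.00073). Of 4 B cell markers 1 passed the filter, *Cd79b*, with a summed level of 137 to 198 untreated and 151 to 229 at 4 h.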

How the data were processed

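RNA of BMDMs of 4 C57Bl/6J mice was measured by RNA sequencing in 3 groups of 4 libraries. According to the submitters' processing notes, reads were mapped to GRCm38 with TopHat2 2.0.11 and counted with HTSeq 0.8.0. The annotation release and the strand option of the counting are not given in the sources used here. The values the authors deposited are raw counts, without normalization, and 0 columns were left unused. Symbols, positions and lengths came from GENCODE M21.

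Genes were filtered with filterByExpr, libraries were scaled by TMM, and 12386 genes were tested with the quasi-likelihood test of edgeR 4.0.16 (R 4.3.3) in 1 fit of the 12 libraries, with group as the only term. The paper used vsn and limma on these counts and names no covariate. Benjamini-Hochberg adjustment ran over all genes tested in each contrast, and a gene was called at an adjusted p under 0.05. Intervals are the fitted value with its standard error at the t quantile of 9 residual degrees of freedom. Standard errors were derived from the fitted value and its F statistic. Total counts of 14580533 to 24153284 per library limit the precision of low genes.

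The members, lists, tests and alternatives were chosen with earlier results of these data known. Named are all members, list genes that were called and changed by at least 1.5-fold at 1 h or 4 h, the 5 genes most like *Rasgrp3*, and markers listed beside a member, except for 1 gene that is not reported here. The single macrophage markers were named after their values were seen. Deviations from the group means correlated with r of 0.29 to 0.561 (median 0.389, 12 pairs) between libraries of the same mouse and -0.304 to 0.0912 (median -0.127, 36 pairs) between mice, over 12386 genes. The labels pair the libraries by mouse, and the mouse as a block was an alternative. The others were DESeq2 1.42.0, limma-voom (limma 3.58.1), RLE normalization, library size only, no filter, 2 groups only, each library left out, and, chosen after seeing the data, mouse 4 left out. Promoters were those of RefSeq on GRCm38.p6, and figures were drawn with matplotlib 3.10.9.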

Additional observations from a re-analysis of the deposited data

Results flagged for a closer look

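In 4 of 69 groups of 4 libraries, 1 library lay far from the other 3, by the ratio of its gap to the range of the group, and chance alone gives about 1 in 20, or 3.45. *Rasgrp4* at 1 h was low in mouse 3 (ratio 0.829), at 993 normalized counts against 1176 to 1214. *Rap1b* at 1 h was low in mouse 4 (0.856), at 7288 against 8086 to 8220. *Rap2b* at 4 h was low in mouse 2 (0.89), at 1135 against 1469 to 1510. *Plcb4* at 1 h was high in mouse 4 (0.864), at 52.3 against 36.0 to 38.3.

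The effects of 1 h and 4 h differed for 4 members by edgeR's test of the difference, which is the log2 fold change between 1 h and 4 h. It was -0.90 for *Rapgef3*, -0.36 for *Rap1b*, -0.30 for *Rapgef2* and -0.18 for *Rap1a*, each lower at 4 h than at 1 h in 4 of 4 mice. The difference for *Rap1a* (adjusted p = 0.0469, edgeR) was not called under 10 of 20 alternatives.

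All 15 named genes of the lists also differed between the time points. Lower at 4 h than at 1 h were *Rapgef5* (-2.18), *Plcb4* (-1.75), *Rasa4* (-1.58), *Rasal1* (-1.29), *Rapgef6* (-1.08), *Dgkd* (-1.03), *Apbb1ip* (-0.85), *Plcl2* (-0.73) and *Dgke* (-0.32). Higher at 4 h were *Sipa1l1* (2.50), *Sipa1l2* (1.48), *Plcd3* (1.47), *Rasal2* (0.58), *Rasa2* (0.38) and *Rap2b* (0.29). The difference for *Rap2b* (adjusted p = 0.0234, edgeR) was not called under 6 of 20 alternatives.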

How the results depend on the processing

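Of the 66 log2 fold changes of the 7 tested members other than *Rasgrp3* and the 15 named list genes, 50 kept direction and call under all 20 alternatives, 12 changed a call and 4 changed sign. Calls among the members at 1 h went from 0 to 1, *Rapgef3*, under RLE normalization, no filter, DESeq2, limma-voom, the mouse as a replicate block and 2 groups only, and ranged from 0 to 1 when 1 library was left out, with 1 without the library of mouse 4 at 1 h and without those of mouse 1 or mouse 3 at 4 h. Calls at 4 h went from 2 to 4 under the replicate block, with *Rasgrp4* and *Rapgef3* added, and ranged from 2 to 4 with 1 library left out, where 4 were called without mouse 1 at 4 h, with *Rasgrp4* and *Rapgef1* added. The block added a call for *Rapgef1* between 1 h and 4 h and calls for *Rasa2* and *Rasa4* at 1 h, and changed no other call among the named genes. The log2 fold change of *Rasgrp3* at 1 h ranged from -0.745 without the untreated library of mouse 4 to -0.191 without the library of mouse 4 at 1 h. Either omission leaves mouse 4 in only 1 of the groups compared, and within single mice the log2 difference at 1 h was -0.589 to -0.309.

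The value of *Rapgef1* at 1 h was -0.0262 and that of *Rasgrp4* between 1 h and 4 h was 0.0294 with scaling by library size only, which put the median of all genes at -0.0733 at 1 h and 0.10 between the time points. With 1 library left out, *Sipa1l1* at 1 h ranged from -0.0992 to 0.0486 and *Rasgrp2* at 4 h from -0.169 to 0.0866. Counts over all genes stayed within 1991 to 3348 at 1 h, 4201 to 5870 at 4 h and 4027 to 5775 between the time points. The cause of these changes was not tested. At this depth *Rasgrp1* had at most 7 counts and *Rapgef4* at most 1 count in a library, and both were left untested.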
